A study of Rattus norvegicus with 6 samples.

Results

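The 10 genes of fatty acid synthesis and desaturation considered here were measured in the renal cortex of rats given dipropylene glycol (DPG), a glycol solvent. They were Acss2, Acly, Acaca, Acacb, Fasn, Elovl6, Elovl5, Scd, Fads1 and Srebf1. Members were found as the array probes whose RefSeq transcript, without its version, belonged to one of these genes in the RefSeq gene table of the assembly GRCr8. In all, 17 of the 61537 non-control probes matched, and they covered 9 of the 10 genes. No probe was matched to Srebf1 through the table, so Srebf1 is not analysed here.

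The series holds 6 one-colour Agilent arrays, 1 per rat, from male Sprague-Dawley (Crl:CD(SD)) rats bought at 5 weeks of age and kept on a basal diet. Control rats (n = 3) received water and treated rats (n = 3) received DPG at 1000 mg/kg/day, both for 4 weeks. Each group was hybridised on a slide of its own, and slide and treatment therefore cannot be told apart in any difference below.

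Fatty acids are built in the cytosol from acetyl-CoA. Acly makes acetyl-CoA from citrate exported by mitochondria, and Acss2 makes it from free acetate. The acetyl-CoA carboxylases Acaca and Acacb turn it into malonyl-CoA, and Fasn assembles palmitate from both. Elovl6 lengthens palmitate, Scd places the first double bond in saturated chains, and Elovl5 and Fads1 act on polyunsaturated chains on the way to arachidonic acid. Srebf1 encodes SREBP-1, a transcription factor that activates most of these genes and is best known for this role in liver and fat. The kidney cortex takes up and burns fatty acids as a main fuel and is not a main site of their synthesis.

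By the brightest probe of each gene, Acss2 was the only member whose arrays separated the groups, and no member passed the adjusted threshold. Both Acss2 probes read higher in all 3 DPG arrays than in any control array. Acly, Fasn and the brighter Elovl6 probe differed by less than the spread between rats. Fads1 and both Acaca probes had lower means in DPG with overlapping arrays, and Acacb had a higher mean with overlapping arrays. Scd was not well above background on any of the 6 arrays.

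The windows before the start sites of Acss2 and Acly are shown because these genes make the same product, cytosolic acetyl-CoA, and Acss2 separated the groups while Acly did not. The difference between the genes was not tested. The sequences are from RefSeq on GRCr8, on the strand of the gene, and cover the 250 bases before the start site. Capitals mark GGGCGG, the core of a GC box, and CCAAT, the CCAAT box, each on either strand.
Acss2, chr3:164464453-164464702, plus strand: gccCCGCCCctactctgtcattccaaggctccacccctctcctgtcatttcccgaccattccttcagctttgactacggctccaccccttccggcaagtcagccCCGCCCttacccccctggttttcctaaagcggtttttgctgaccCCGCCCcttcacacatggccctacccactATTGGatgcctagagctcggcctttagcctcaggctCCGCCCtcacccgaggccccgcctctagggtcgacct
Acly, chr10:85963632-85963881, minus strand: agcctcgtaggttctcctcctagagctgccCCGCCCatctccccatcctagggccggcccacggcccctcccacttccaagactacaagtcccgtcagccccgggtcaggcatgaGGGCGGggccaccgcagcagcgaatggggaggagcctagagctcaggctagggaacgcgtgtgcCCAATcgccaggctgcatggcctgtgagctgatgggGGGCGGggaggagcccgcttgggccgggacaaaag

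The Acss2 window held GGGCGG 4 times, all on the reverse strand, and CCAAT 1 time. The Acly window held GGGCGG 3 times and CCAAT 1 time. Of all 33469 windows of this length, 30.5% held GGGCGG and 34% held CCAAT on either strand, so both motifs are common. Windows were given for 7 of the 10 genes, Srebf1 with a pair of them, which made 8 windows. Of the 8, 7 held CCAAT and 5 held GGGCGG on either strand, and these counts were not tested against the shares of all windows. The E-box CACGTG was found in 1 of the 8, that of Elovl5, against 5.59% of all windows. These are letter matches in a short window and say nothing about which factors bind there.

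All levels below are log2 signals relative to the 75th percentile of the same array, so 0 is a probe at that percentile and 1 unit is a doubling. A level is compared only within 1 probe, since probes differ in how well they bind. To be tested, a probe had to be called well above background by the scanner software throughout 1 group or the other, and 14 of the 17 member probes met this. The test was limma across all 40383 such probes, two-sided, with Benjamini-Hochberg adjustment at 0.05. It called 0 of them (0%), and the smallest adjusted p was 0.131. At an unadjusted p of 0.05, 5008 probes passed (12.4%), 6.56% higher and 5.84% lower in DPG. Counted by the brightest probe of each gene, 3688 of 29647 genes passed (12.4%), 6.72% higher and 5.72% lower in DPG. Of these 29647, 11924 carried a gene symbol. The others were unmatched identifiers, each counted as a gene, so 1 gene may be counted more than once. Control and DPG arrays separated without overlap for 19.7% of genes, 10.7% with DPG higher and 8.96% with DPG lower. The log2 fold change was below 0 for 49.2% of genes.

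Among the 8 member genes with a tested probe, 1 passed the unadjusted threshold (Acss2, higher) and 0 the adjusted one. By the brightest probe, the groups did not overlap for that gene only. Set against the 12.4% and 19.7% of all genes, these counts are near the background. The median log2 fold change of the 8 genes was 0.02, against 0.00 for all genes, and 5 of the 8 lay above 0.

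**Figure D1:**
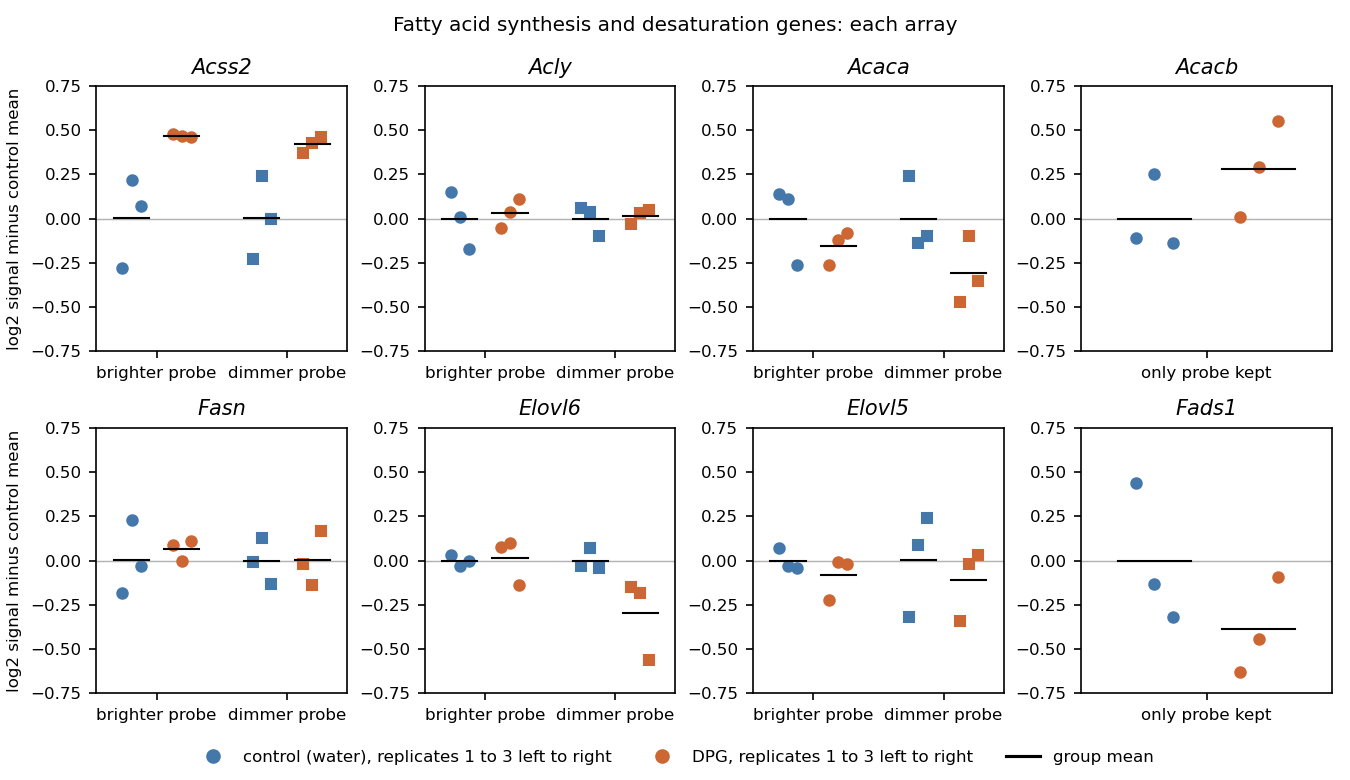
Log2 signal of each kept probe on each array, minus the control mean of that probe, for the 8 member genes with a tested probe (blue, control; orange, DPG; black line, group mean; n = 3 per group). The Acss2 probes show all DPG arrays above all control arrays, while the other genes' brightest probes overlap between the groups.

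Acss2, the acetate-using acetyl-CoA synthetase, was measured by 2 probes. The brighter one (A_64_P130683) read 4.09, 4.59 and 4.44 in controls 1 to 3. It read 4.85, 4.84 and 4.83 in DPG 1 to 3. Control 1 was the lowest array, and the DPG arrays were tightly grouped (SD 0.01, against 0.26 in controls). The log2 fold change, DPG over control, was 0.47 ± 0.13 (SE, n = 3 per group), or 1.38-fold. Its 95% interval ran from 0.14 to 0.79 on the log2 scale. It passed an unadjusted threshold of 0.05 in limma, and the adjusted p was 0.307.

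The dimmer Acss2 probe (A_44_P501593) read 1.73, 2.20 and 1.96 in the controls. It read 2.33, 2.39 and 2.42 in the DPG rats. The order of the controls was the same in both probes, with control 1 lowest and control 2 highest. Its log2 fold change was 0.42 ± 0.13 (limma adjusted p = 0.317). An exact permutation test of 3 against 3 gave p = 0.1 for the brighter probe, two-sided, which is the smallest value this design allows. Both probes come from the same RNA and are not replicates of each other. Without control 1 the brighter probe gave 0.33 and without control 2 it gave 0.58, and the unadjusted p stayed below 0.05 with each array left out.

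Acly, the ATP-citrate lyase, makes the same product from citrate. Its brighter probe (A_64_P085112) read 4.02, 3.88 and 3.70 in controls 1 to 3 and 3.82, 3.91 and 3.98 in DPG 1 to 3. The highest and the lowest arrays were both controls. The log2 fold change was 0.03 ± 0.10 with a 95% interval from -0.22 to 0.29. The other probe (A_44_P1004037) gave 0.01, with an interval from -0.17 to 0.20.

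**Figure D2:**
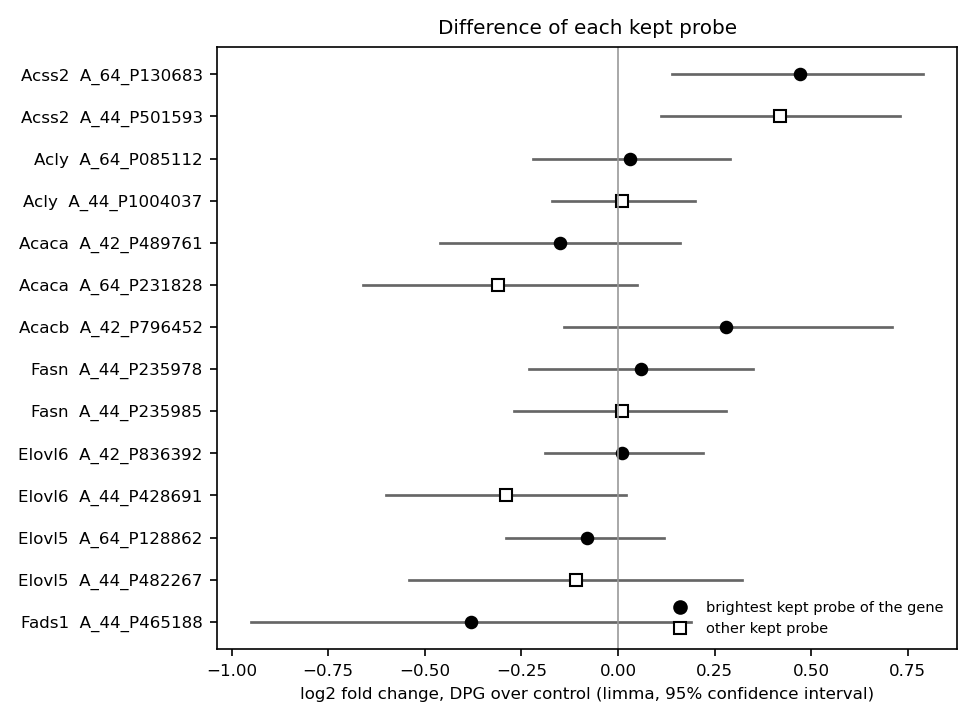
Log2 fold change, DPG over control, of the 14 kept member probes with the 95% confidence interval from limma (filled circles, brightest kept probe of a gene; open squares, the other probe). The intervals of both Acss2 probes lie above 0, and those of the other 12 probes include 0.

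The acetyl-CoA carboxylases make malonyl-CoA, Acaca chiefly for synthesis and Acacb chiefly at mitochondria, where malonyl-CoA limits fatty acid uptake. Acaca was read by a pair of dim probes that were well above background on all 6 arrays. The brighter one (A_42_P489761) read -3.21, -3.24 and -3.61 in controls and -3.61, -3.47 and -3.43 in DPG. Control 3 lay as low as the lowest DPG array, and the log2 fold change was -0.15 ± 0.13 (limma adjusted p = 0.662). Without control 3 it was -0.28 and passed the unadjusted threshold, with an adjusted p of 0.406.

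The other Acaca probe (A_64_P231828) read -3.83, -4.21 and -4.17 in controls and -4.54, -4.17 and -4.42 in DPG. Its log2 fold change was -0.31 ± 0.15 (limma adjusted p = 0.457). DPG 2 sat among the controls, and without that array the value was -0.41 and passed the unadjusted threshold (limma adjusted p = 0.510).

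Acacb had 1 tested probe (A_42_P796452), which read -3.95, -3.59 and -3.98 in controls and -3.83, -3.55 and -3.29 in DPG. The DPG mean was higher by 0.28 ± 0.17, with an interval from -0.14 to 0.71, and the arrays overlapped. Left-out arrays moved this value between 0.15 without DPG 3 and 0.42 without DPG 1. The second Acacb probe (A_44_P404853) was well above background on 1 control and 2 DPG arrays and was not tested.

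Fasn, the multi-enzyme synthase of palmitate, gave no separation of the groups. Its brighter probe (A_44_P235978) read 1.48, 1.89 and 1.63 in controls and 1.75, 1.66 and 1.77 in DPG. The control arrays spanned the whole DPG range, and the log2 fold change was 0.06 ± 0.12 with an interval from -0.23 to 0.35. The other probe (A_44_P235985) gave 0.01, with an interval from -0.27 to 0.28.

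The elongases gave small differences. Elovl6, which lengthens palmitate to stearate, had probes that differed from each other. The brighter (A_42_P836392) read 0.78, 0.72 and 0.75 in controls and 0.83, 0.85 and 0.61 in DPG, a log2 fold change of 0.01 ± 0.09. The dimmer (A_44_P428691) read -2.83, -2.73 and -2.84 in controls and -2.95, -2.98 and -3.36 in DPG. On the dimmer probe the groups did not overlap, and DPG 3 was the lowest array on both. The log2 fold change of the dimmer probe was -0.29 ± 0.13 (limma adjusted p = 0.422). Without DPG 1 it was -0.37 and passed the unadjusted threshold (limma adjusted p = 0.568), and without DPG 3 it was -0.16.

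Elovl5, an elongase of polyunsaturated chains, read -2.05, -2.15 and -2.16 in controls and -2.34, -2.13 and -2.14 in DPG on its brighter probe (A_64_P128862). DPG 1 was the lowest array and the other DPG arrays lay within the controls. The log2 fold change was -0.08 ± 0.08, and that of the other probe (A_44_P482267) was -0.11 ± 0.18.

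Of the desaturases, none passed the test in either direction. Fads1, the delta-5 desaturase that forms arachidonic acid, had 1 probe (A_44_P465188), which read 1.28, 0.71 and 0.52 in controls. It read 0.21, 0.40 and 0.75 in DPG. Control 1 stood above all other arrays, and DPG 3 lay above controls 2 and 3. The log2 fold change was -0.38 ± 0.23, with an interval from -0.95 to 0.19 (limma adjusted p = 0.550). Without control 1 it was -0.16.

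Fads2, the delta-6 desaturase, is no member but acts in the same chain. Its brighter probe read -0.38, -0.73 and -0.54 in controls and -0.78, -0.80 and -0.67 in DPG, a log2 fold change of -0.20 ± 0.11 (limma adjusted p = 0.490). Control 1 was again the highest array. Scd2, a stearoyl-CoA desaturase, gave -0.17 ± 0.08 on its brightest probe (limma adjusted p = 0.429), where the groups did not overlap, and -0.12 and -0.27 on the others. Other desaturase genes of the lists, named here after their values were seen, went both ways. Fads3 gave -0.28 ± 0.12, while Fads6 gave 0.51 ± 0.23 and 0.54 ± 0.25 on its probes and the dihydroceramide desaturase gene Degs1 gave 0.10 ± 0.15. Over all 10 tested desaturase probes, 7 lay below 0 and 3 above it, and 0 passed an unadjusted p of 0.05. Scd itself was not well above background on any array with either probe (A_64_P085530 and A_44_P550145), so no fold is given for it.

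The arrays that stood out differed from gene to gene. Control 1 was the highest array for 4 of the 8 brightest probes (Acly, Acaca, Elovl5 and Fads1) and the lowest for 2 (Acss2 and Fasn). DPG 1 was the lowest for 3 (Acaca, Elovl5 and Fads1). Averaged over the 8 genes, the shift from the control means was 0.03, 0.08 and -0.11 in controls 1 to 3. The DPG arrays gave -0.06, 0.04 and 0.11 and overlapped the controls. The summed signal of the same genes, relative to the 75th percentile and weighted to the brightest probes, was 40.7 to 46.3 in controls and 49.6 to 51.3 in DPG and did not overlap. Acss2 had the brightest of these 8 probes, with a mean log2 level of 4.37 in controls and 4.84 in DPG. The sum therefore follows Acss2 most and does not describe the 8 genes as a set. No sum without Acss2 was made.

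**Figure D3:**
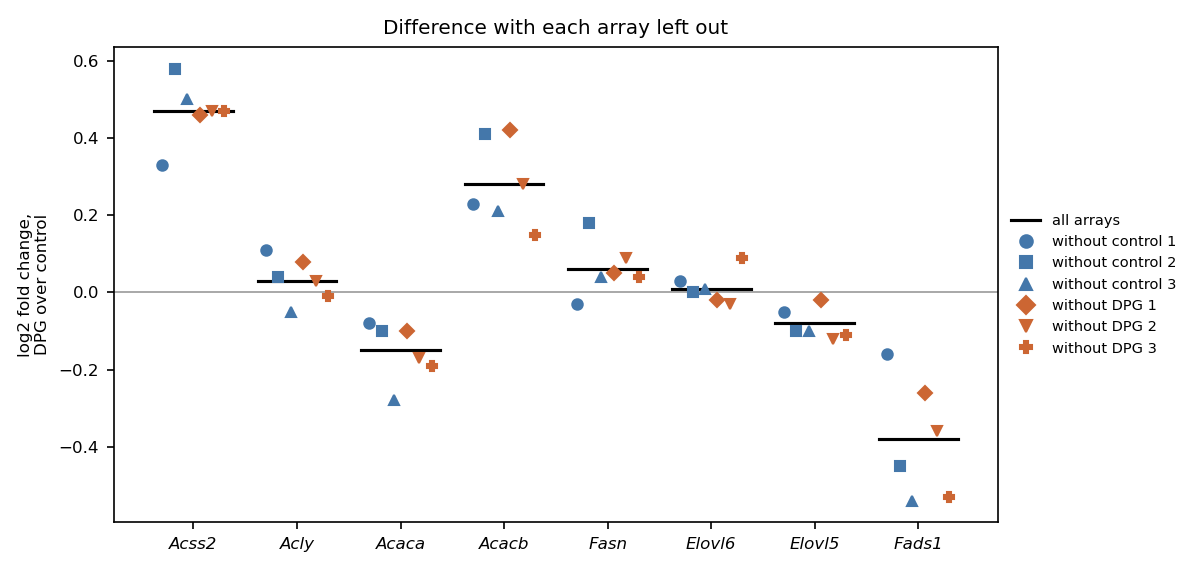
Log2 fold change, DPG over control, of the brightest probe of each member gene with all arrays (black line) and with each array left out in turn (blue, a control left out; orange, a DPG array left out). Acss2 stays between 0.33 and 0.58, and Fads1 moves between -0.54 and -0.16.

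Genes that feed synthesis with citrate, acetyl-CoA and NADPH had a median log2 fold change of 0.00. Of 10 tested genes, 1 passed an unadjusted p of 0.05 on the higher side and 1 on the lower. Me1, the cytosolic malic enzyme that supplies NADPH, was the higher one. Its brightest probe read 4.43, 4.56 and 4.63 in controls and 4.67, 5.30 and 5.15 in DPG. DPG 1 lay just above control 3, and the log2 fold change was 0.50 ± 0.17 (limma adjusted p = 0.352). The other Me1 probes gave 0.57 and 0.58. The unadjusted p of the brightest probe was above 0.05 without control 1, control 2, DPG 2 or DPG 3.

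Aco1, the cytosolic aconitase that turns citrate into isocitrate, was the lower one. It read 6.38, 6.41 and 6.32 in controls and 5.93, 6.07 and 5.99 in DPG, a log2 fold change of -0.37 ± 0.07 (limma adjusted p = 0.238). Its arrays did not overlap, and its unadjusted p stayed below 0.05 in all 17 alternatives that could be run on it. The mitochondrial citrate carrier gene Slc25a1 gave -0.11 ± 0.07, and Pgd was not matched to a probe.

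Regulators of the pathway had a median of -0.02, and 1 of 23 passed an unadjusted p of 0.05. The SREBP escort gene Scap gave -0.02 ± 0.10, and the retention genes Insig1 and Insig2 gave 0.06 ± 0.12 and -0.07 ± 0.07. Srebf2, which encodes the SREBP of cholesterol synthesis, gave 0.12 ± 0.09. Mlxipl, which encodes the carbohydrate-responsive factor ChREBP, gave 0.13 ± 0.14. Thrsp, a lipogenic target of thyroid hormone, gave 0.19 ± 0.15, and Nr1h3, which encodes the liver X receptor alpha, -0.04 ± 0.08. The exception was Prkab2, which encodes a beta subunit of AMPK, the kinase that inactivates acetyl-CoA carboxylases. It read -4.59, -4.32 and -4.46 in controls and -3.05, -2.61 and -3.30 in DPG, with a log2 fold change of 1.47 ± 0.18 (adjusted p = 0.233 from limma). With normexp background correction the value of this dim probe was 0.76.

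Other elongation and desaturation genes had a median of -0.02, with 1 of 15 past an unadjusted p of 0.05. This was Hsd17b12, the ketoacyl-CoA reductase of the elongation cycle, at 0.40 ± 0.11 (limma adjusted p = 0.293), with groups that did not overlap. Genes of fatty acid activation and glycerolipid synthesis had a median of 0.01, with 2 of 18 past an unadjusted p of 0.05 on the higher side and 1 on the lower. The acyl-CoA synthetase gene Acsl5 gave 0.34 ± 0.10, the acyltransferase gene Agpat2 0.29 ± 0.10 and the acyl-CoA synthetase gene Acsl1 -0.18 ± 0.06. Agpat2 missed the unadjusted threshold without control 1, control 3, DPG 1 or DPG 3. The brightest Acsl1 probe missed it without any one array other than DPG 3. The other Acsl1 probes gave -0.22, -0.30 and -0.23, and the groups overlapped on none of the Acsl1 probes. The triglyceride synthesis genes Dgat1, Dgat2 and Gpam gave -0.04 ± 0.07, 0.05 ± 0.10 and -0.07 ± 0.13. The separate mitochondrial synthesis pathway showed a median of 0.05, with 0 of 9 past an unadjusted p of 0.05.

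The cholesterol synthesis list, which shares SREBP control with several members, had a median of 0.07 and 2 of 22 genes past an unadjusted p of 0.05, both higher. Tm7sf2, a sterol reductase gene, gave 0.32 ± 0.09, and Dhcr7, which completes cholesterol, 0.26 ± 0.08. Dhcr7 missed the unadjusted threshold without DPG 1 or DPG 2. In none of these 6 pathway lists did a gene pass the adjusted threshold in limma, and the smallest adjusted p was 0.233.

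**Figure D4:**
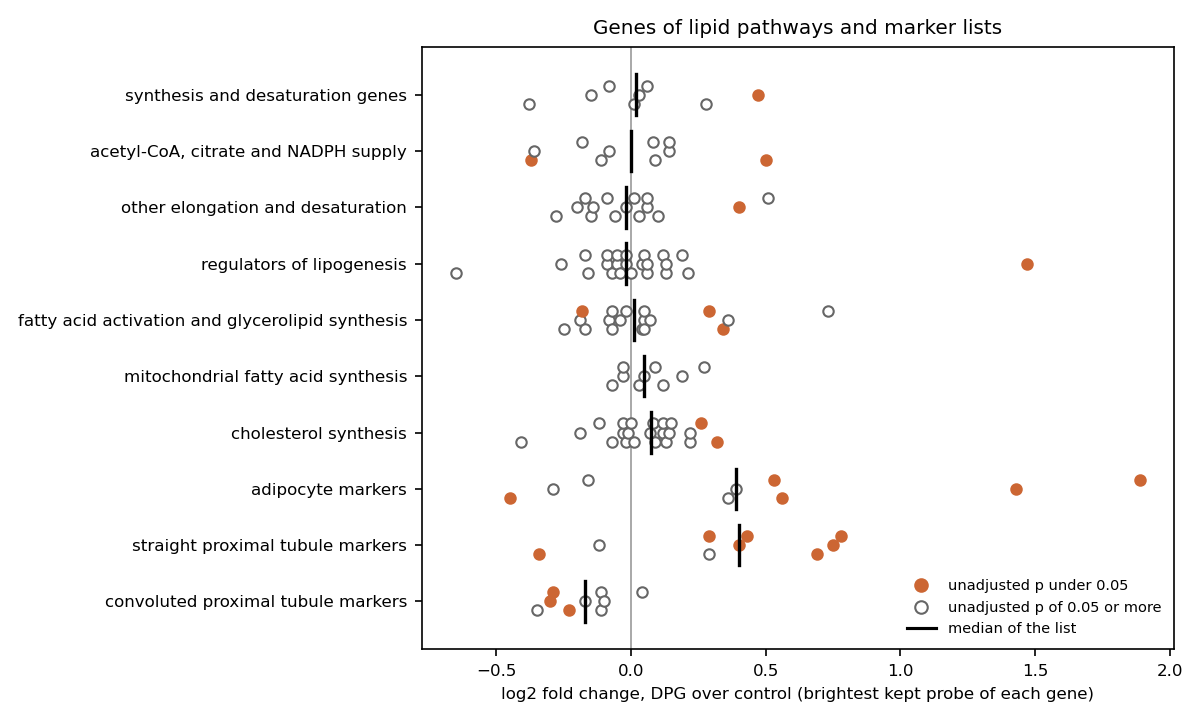
Log2 fold change, DPG over control, of the brightest kept probe of each gene in the lipid lists and in 3 marker lists (filled, unadjusted limma p under 0.05; open, 0.05 or more; black line, list median). The lipid lists have medians between -0.02 and 0.07, and the adipocyte and straight proximal tubule lists have medians of 0.39 and 0.40.

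Markers of other cells were read beside the members, since fat cells make fatty acids and the cortex holds several tubule segments. In bulk tissue, fewer cells of a type and less RNA per cell cannot be told apart. Cortex markers were present: all 9 convoluted proximal tubule, 9 straight proximal tubule and 6 podocyte markers had a tested probe. Straight proximal tubule markers had a median of 0.40, with 6 of 9 higher and 1 lower at an unadjusted p of 0.05. Their summed signal, relative to the 75th percentile, was between 671 and 832 in controls and between 991 and 1030 in DPG. Control 1, the lowest array for Acss2, was also the lowest in this sum. It was the lowest too in the sums of the thick limb and distal, cholesterol synthesis, mitochondrial synthesis, adipocyte and hepatocyte lists. Control 1 was the highest array in the sums of the acetyl-CoA, citrate and NADPH list (352) and the podocyte list (39.7). In the other pathway and marker lists it was neither. The thick limb and distal sum was 533 to 577 in controls and 641 to 692 in DPG. The cholesterol sum was 96.7 to 99.5 in controls and 102 to 104 in DPG, and neither overlapped. Such sums follow the brightest probes. The mean shifts of both lists, in which each gene counts equally, did overlap. They were -0.09, 0.15 and -0.05 in controls 1 to 3 and 0.08, 0.18 and 0.10 in DPG 1 to 3 for thick limb and distal. For cholesterol they were 0.03, 0.00 and -0.03 in controls and 0.05, 0.00 and 0.09 in DPG. Slc7a13, an amino acid transporter of the straight proximal tubule, had the largest rise of its list and gave 0.78 ± 0.16. Cyp2e1 was the lower straight tubule marker, at -0.34. It missed the unadjusted threshold with the replicate block and without control 2 or DPG 2. Convoluted proximal tubule markers had a median of -0.17, with 3 of 9 lower, and podocyte markers one of -0.21, with 3 of 6 lower. With an array left out, the convoluted count ranged from 1 (without control 1) to 4 (without control 2). The podocyte count was 0 without control 1 or DPG 1, 1 without control 2 or DPG 3, and 2 without control 3 or DPG 2. It was 1 with normexp, median scaling or no filter on dim probes, and 0 with the replicate block. The straight tubule count stayed at 5 or 6 higher. The part of these shifts in the Acss2 difference was not tested.

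Adipocyte markers had a median of 0.39, and of 9 tested genes 4 were higher and 1 lower at an unadjusted p of 0.05. The count of higher genes was 1 without DPG 1, 2 without control 1, control 3 or DPG 3, 3 without control 2 and 4 without DPG 2. With the replicate block, 2 were higher and 0 lower. The 9 include Retn, which was well above background throughout 1 group only. With all 6 arrays required to be well above background, 8 genes were tested and 3 were higher. The sum and the mean shift that follow keep all 9. Their summed signal was between 3.74 and 5.03 in controls and between 4.56 and 5.57 in DPG and overlapped. Their mean shift from the control means did not overlap. It was -0.05, 0.16 and -0.10 in controls 1 to 3 and 0.55, 0.37 and 0.51 in DPG 1 to 3. This mean includes Retn at 1.43 and Fabp4 at 1.89, and none was made without them. The separation is therefore no test of the list. Pparg, the master regulator of fat cell formation, gave 0.53 ± 0.15. Fabp4, a fatty acid binding protein of fat cells and endothelium, was named after its values were seen and gave 1.89 ± 0.70. Over the alternatives it ranged from 1.22 (normexp) to 2.66 (without control 2), and it missed the unadjusted threshold with the replicate block and without control 1, control 3, DPG 1 or DPG 3. Cidec and Retn were the other higher genes, at 0.56 and 1.43, and normexp gave Retn 0.37. Cidec missed the unadjusted threshold with the replicate block and without control 1, control 2, DPG 1 or DPG 3. Retn missed it without control 2, control 3, DPG 1 or DPG 3. Adipoq, which encodes adiponectin, was the lower gene and gave -0.45 ± 0.14 on its brighter probe. That probe missed the threshold with the replicate block and without control 1 or control 2. The other Adipoq probe gave -0.33 ± 0.15, with overlapping groups. The leptin gene Lep was not well above background on any array, as was the case for Scd. For Fabp4 control 2 lay above DPG 2, at -2.18 and -2.45. The part of the adipocyte list in the Acss2 difference was not tested.

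Hepatocyte markers had a median of -0.14, with 0 of 5 tested genes past an unadjusted p of 0.05. The albumin gene Alb had no tested probe. Leukocyte markers had a median of 0.13 with 1 of 6 higher. The count was 0 without control 1, control 3, DPG 1 or DPG 3 and with the replicate block. With all 6 arrays required to be well above background, 0 of 5 leukocyte markers were higher. Thick limb and distal markers had a median of 0.20 with 3 of 7 higher and 1 lower, and collecting duct and medulla markers one of -0.01 with 2 of 10 lower, and 1 without control 3, DPG 1 or DPG 3. Across all arrays, between 39556 and 43184 probes were well above background, and control 3 had the fewest. Correlations between arrays over genes were 0.991 to 0.994 within groups and 0.989 to 0.993 across them.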

How the data were processed

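Total RNA of each rat's renal cortex was labelled with Cy3 and hybridised to 1 array, per the labels' protocols. The deposited intensity is the spot signal after background subtraction and detrending by Agilent Feature Extraction (10.7.1.1 per the file headers, 10.7 per the submitters' processing notes), linear and not scaled between arrays. The series-wide deposited table gives that signal as a ratio to about the array's 75th percentile. Its column medians were 0.11, 0.111, 0.114, 0.111, 0.108 and 0.112 for controls 1 to 3 and DPG 1 to 3. Its ratio to the scanner signal was constant within each array, so it is linear, uncentred and runs the same way. The submitters' own scaling step is not stated in the labels.

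Only non-control spots were analysed, of which 0 were saturated. From each log2 signal the 75th percentile of its array was subtracted. An outlier flag on any array removed a probe (23 in all). Names came from unversioned RefSeq accessions in the GRCr8 table: 28206 probes matched 1 symbol and 33331 kept their identifier. DPG was set against control in limma (version 3.58.1, R version 4.3.3) by lmFit and eBayes, and the script was tested on simulated data. A gene is counted by its brightest kept probe. Values written a ± b are log2 fold changes with the limma standard error.

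The members and lists were chosen with earlier results of these data known. The text names all members, a fixed set of 19 pathway genes, and members of the pathway lists with an unadjusted p under 0.05 (at most 4 per list). Some of these pathway genes and 1 searched motif are not reported here. Of the marker lists only examples are named, and Fabp4, Fads3, Fads6 and Degs1 lie outside the rule. The labels call the replicates biological, and numbers shared between groups do not pair rats. The alternatives were normexp (offset 50, on median rather than mean pixel signal), median and quantile scaling, other probe filters, outlier spots kept, other ways to combine probes, a trended robust variance, array weights, the replicate block, the deposited table and each array left out.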

Additional observations from a re-analysis of the deposited data

How the results depend on the processing

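The number of arrays, 3 per group, limits every value, and standard errors of member probes ran from 0.07 (Acly) to 0.23 (Fads1). The number of probes past the adjusted threshold was 0 in each alternative that kept the 6 arrays. Leaving out an array gave 0 to 2. It was 2 without control 2 (A_44_P362016 and A_43_P21640) and 1 without DPG 2 (A_44_P557826). None is a member, all 3 were named after their values were seen, and the cause was not tested. Member genes past an unadjusted p of 0.05 ranged from 1 to 2 with an array left out, the second being Acaca without control 3. Both Acss2 probes kept an unadjusted p below 0.05 in every alternative that could be run on them, with adjusted p from 0.208 to 0.599 for the brighter one, and normexp gave the dimmer one 0.28.

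No paired design was found: same-numbered rats had deviations correlated at -0.02, -0.09 and -0.07. With the replicate block, 4084 probes passed an unadjusted p of 0.05 against 5008, 0 the adjusted one and 1 member gene the unadjusted one. A slide block could not be fitted.

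Of 232 values of member probes under alternatives, 213 kept sign and side of an unadjusted p of 0.05, 3 newly passed it and 16 changed sign. The sign changes were all near 0. Normexp gave -0.11 for Acly (A_44_P1004037) and -0.07 for Fasn (A_44_P235985), and array weights gave them 0.00 and -0.01. With an array left out, Acly ranged from -0.05 to 0.11 (A_64_P085112) and -0.04 to 0.05 (A_44_P1004037), Fasn from -0.03 to 0.18 (A_44_P235978) and -0.08 to 0.08 (A_44_P235985), Elovl6 from -0.03 to 0.09 (A_42_P836392) and Elovl5 from -0.27 to 0.01 (A_44_P482267).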
